A study of Mus musculus with 2 samples.

Results

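The genes of 10 transcription factors that have been linked to the choice of hormone in gut endocrine cells were followed here: Fev, Lmx1a, Mnx1, Etv1, Onecut3, Hhex, St18, Mlxipl, Rfx3 and Myt1. They were chosen by gene symbol, and all 10 were found among the 32285 genes of the count tables. Epithelial cells carrying the Tomato reporter were sorted from the whole small intestine of mice aged 4 to 6 weeks, and single-cell RNA-Seq was run on 1 library per genotype, each pooled from 4 to 5 mice. The WT library came from Neurog3Cre; Rosa26tdtomato mice and the NFKO library from Neurog3Cre-FoxO1 f/f; Rosa26tdtomato mice, so both genotypes carried the Cre and the reporter and only NFKO carried the floxed FoxO1 alleles. The Cre is driven by Neurog3, the gene of the factor that starts the endocrine program, and the reporter also marks descendants of cells that once used it.

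Enteroendocrine cells are rare hormone-producing cells of the gut lining. Progenitors that express Neurog3 leave the crypt and mature into cells that mainly make, for instance, GIP, GLP-1 (from Gcg) and PYY, CCK, neurotensin, somatostatin or ghrelin, or into enterochromaffin cells, which make serotonin through the enzyme Tph1 and often the tachykinin peptide Tac1. Combinations of transcription factors are known to mark, and in several cases to direct, these fates.

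After filtering, 3003 cells and 78424392 UMIs (unique molecular identifiers, each counting 1 captured transcript molecule) remained in WT and 5292 cells and 111522270 UMIs in NFKO, with medians of 16883 and 17035 UMIs per cell. Clusters with the markers of enteroendocrine cells (Chga, Chgb, Cpe, Pcsk1 and related genes) held 889 WT cells (29.6%) and 1891 NFKO cells (35.7%), called enteroendocrine-like below, with medians of 12507 and 15441 UMIs. The members were left out of the clustering. A level in CPM is the summed UMI count of a gene, scaled to a total of 1000000 over the cells named. With 1 library per genotype there was no replicate, no p-value could be computed, and the 95% intervals given in parentheses (exact Poisson for levels, exact binomial for shares and ratios) cover counting error only.

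Foxo1 itself was at 25.4 CPM (276 UMIs) in the WT and 22.2 (644 UMIs) in the NFKO enteroendocrine-like cells, a ratio of 0.872 (0.756 to 1.01). The libraries read the 3′ end of each transcript, so these counts do not check whether the floxed part of the gene was deleted, and the genotypes below rest on the labels. The libraries also differed in sex. In WT, 742 of 889 enteroendocrine-like cells had a UMI of a Y-linked gene and none of Xist, against 130 of 1891 in NFKO, where 1693 cells had the opposite pattern. Over the 11 heat-shock and immediate early genes the summed level was 11756 in WT and 6712 in NFKO, and over the 7 goblet markers it was 3376 in WT and 5593 in NFKO. Genotype, sex, dissociation and library cannot be told apart in any comparison of NFKO with WT.

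Each of the 10 factors was higher in enteroendocrine-like cells than in the remaining cells of the same library, by 8.02-fold (Mlxipl) to 160-fold (Onecut3) in WT and by 10.2-fold (Mlxipl) to 136-fold (Onecut3) in NFKO. All 10 members had the required 20 UMIs and were at least 2-fold higher in both libraries, a call made for 38.2% of the 16040 genes tested (46.1% in WT and 41.2% in NFKO taken singly). With a background this wide, the call itself sets the factors apart little. Between 56.3% (Mlxipl) and 96.3% (Onecut3) of a member's UMIs in WT, and between 78.2% (Mlxipl) and 98.0% (Onecut3) in NFKO, lay in the enteroendocrine-like cells.

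**Figure D1:**
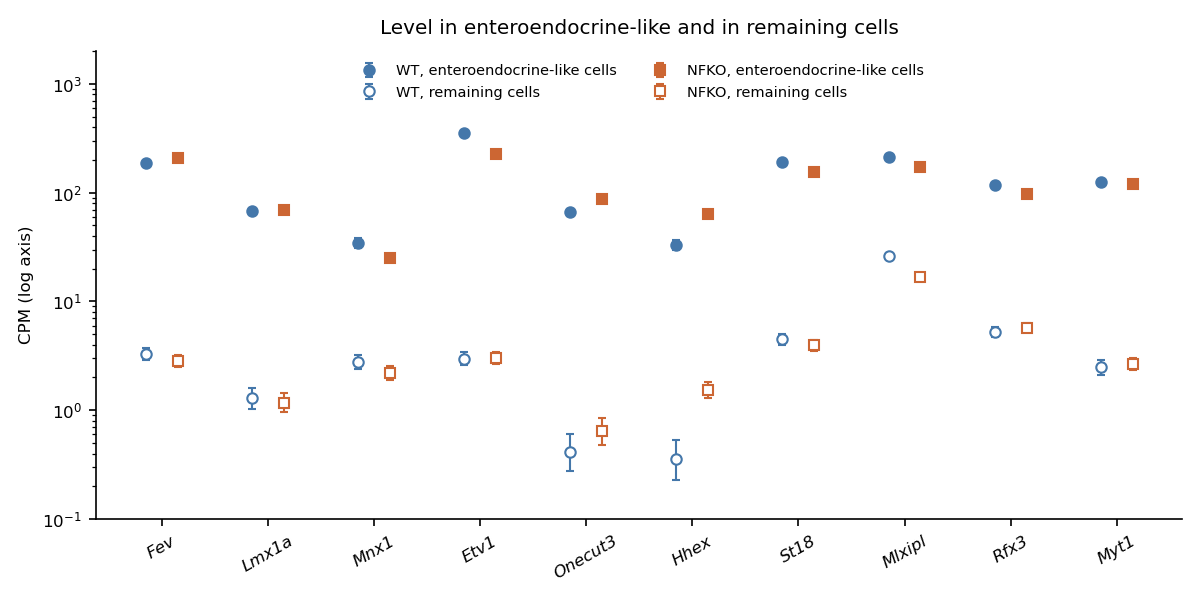
Level of each factor, in CPM on a log axis, in the enteroendocrine-like cells (filled) and in all remaining cells (open) of the WT (circles) and NFKO (squares) libraries, with 95% counting intervals. The filled points lie above the open ones for all 10 factors, by the least for Mlxipl, which stood at 26.4 in the remaining WT cells.

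Outside the endocrine class most of the factors were low, and the exceptions differed by cell type. In goblet-like cells, which were deeper (medians of 23919 and 23416 UMIs), between 0% (Lmx1a in WT) and 9.35% (Rfx3 in NFKO) of cells had a UMI of a given factor. The zinc-finger factor St18 was also found in tuft-like cells, the chemosensory cells of the epithelium, at 64.7 (46.8 to 87.1) in WT and 56.8 (47.5 to 67.3) in NFKO. Mlxipl, the carbohydrate-responsive factor ChREBP, was found in enterocyte-like cells at 59.9 (54.1 to 66.2) and 63.9 (58.2 to 70.0), and in stem-like cells at 49.0 and 34.3. Both genes thus had another site of expression in both libraries. Rfx3 was at 27.1 (18 UMIs) and 19.8 (46 UMIs) in tuft-like cells, where 10.7% of 56 WT and 9.02% of 133 NFKO cells had a UMI after thinning to 4000 UMIs each, against 1.14% and 2.32% of goblet-like cells. The remaining cells also included an unnamed shallow cluster in which Etv1 was at 207 and 213, Myt1 at 141 and 104 and Fev at 96.2 and 97.3.

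The enteroendocrine-like cells were then split by their dominant hormone gene, so that each factor could be placed. The Gip group held 86 WT and 321 NFKO cells, the Gcg/Pyy group 131 and 141, the Cck group 103 and 209, the Nts group 56 and 114, the Sst group 36 and 89 and the Ghrl group 73 and 150. Cells dominated by Tph1 were divided into 153 and 249 with Tac1 and 12 and 186 without it. The Neurog3 group, which stands for progenitors by its gene, held 139 and 284 cells, and 100 and 148 cells reached the limit for no gene. The limit was near for 89 WT (10.0%) and 117 NFKO (6.19%) cells, so the borders of the groups are approximate. The WT groups were unequal in depth, with medians of 4904 UMIs per cell in the Nts group, 7469 in the Sst group and 12181 in the Gip group. The NFKO medians were 17154, 16394 and 17594, so the shallow groups of WT were not shallow in NFKO. Shares of cells with a UMI depend on depth, and are given below also after each cell was thinned to 4000 UMIs, with shallower cells left out.

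Of the 10 members, 6 had their highest level in the same group in both libraries. The same count was not taken over all genes, so it describes these members only. Lmx1a led in the Tph1 group without Tac1, Fev and Mnx1 in the Tph1 group with Tac1, Etv1 in the Gcg/Pyy group, Hhex in the Sst group and St18 in the cells with no dominant hormone. The top places of Fev and St18 in WT and of Lmx1a in both libraries lay within counting error of the next group. Onecut3, Mlxipl, Rfx3 and Myt1 changed their leading group between the libraries, and for the last 3 the leading level in WT was within counting error of the second.

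**Figure D2:**
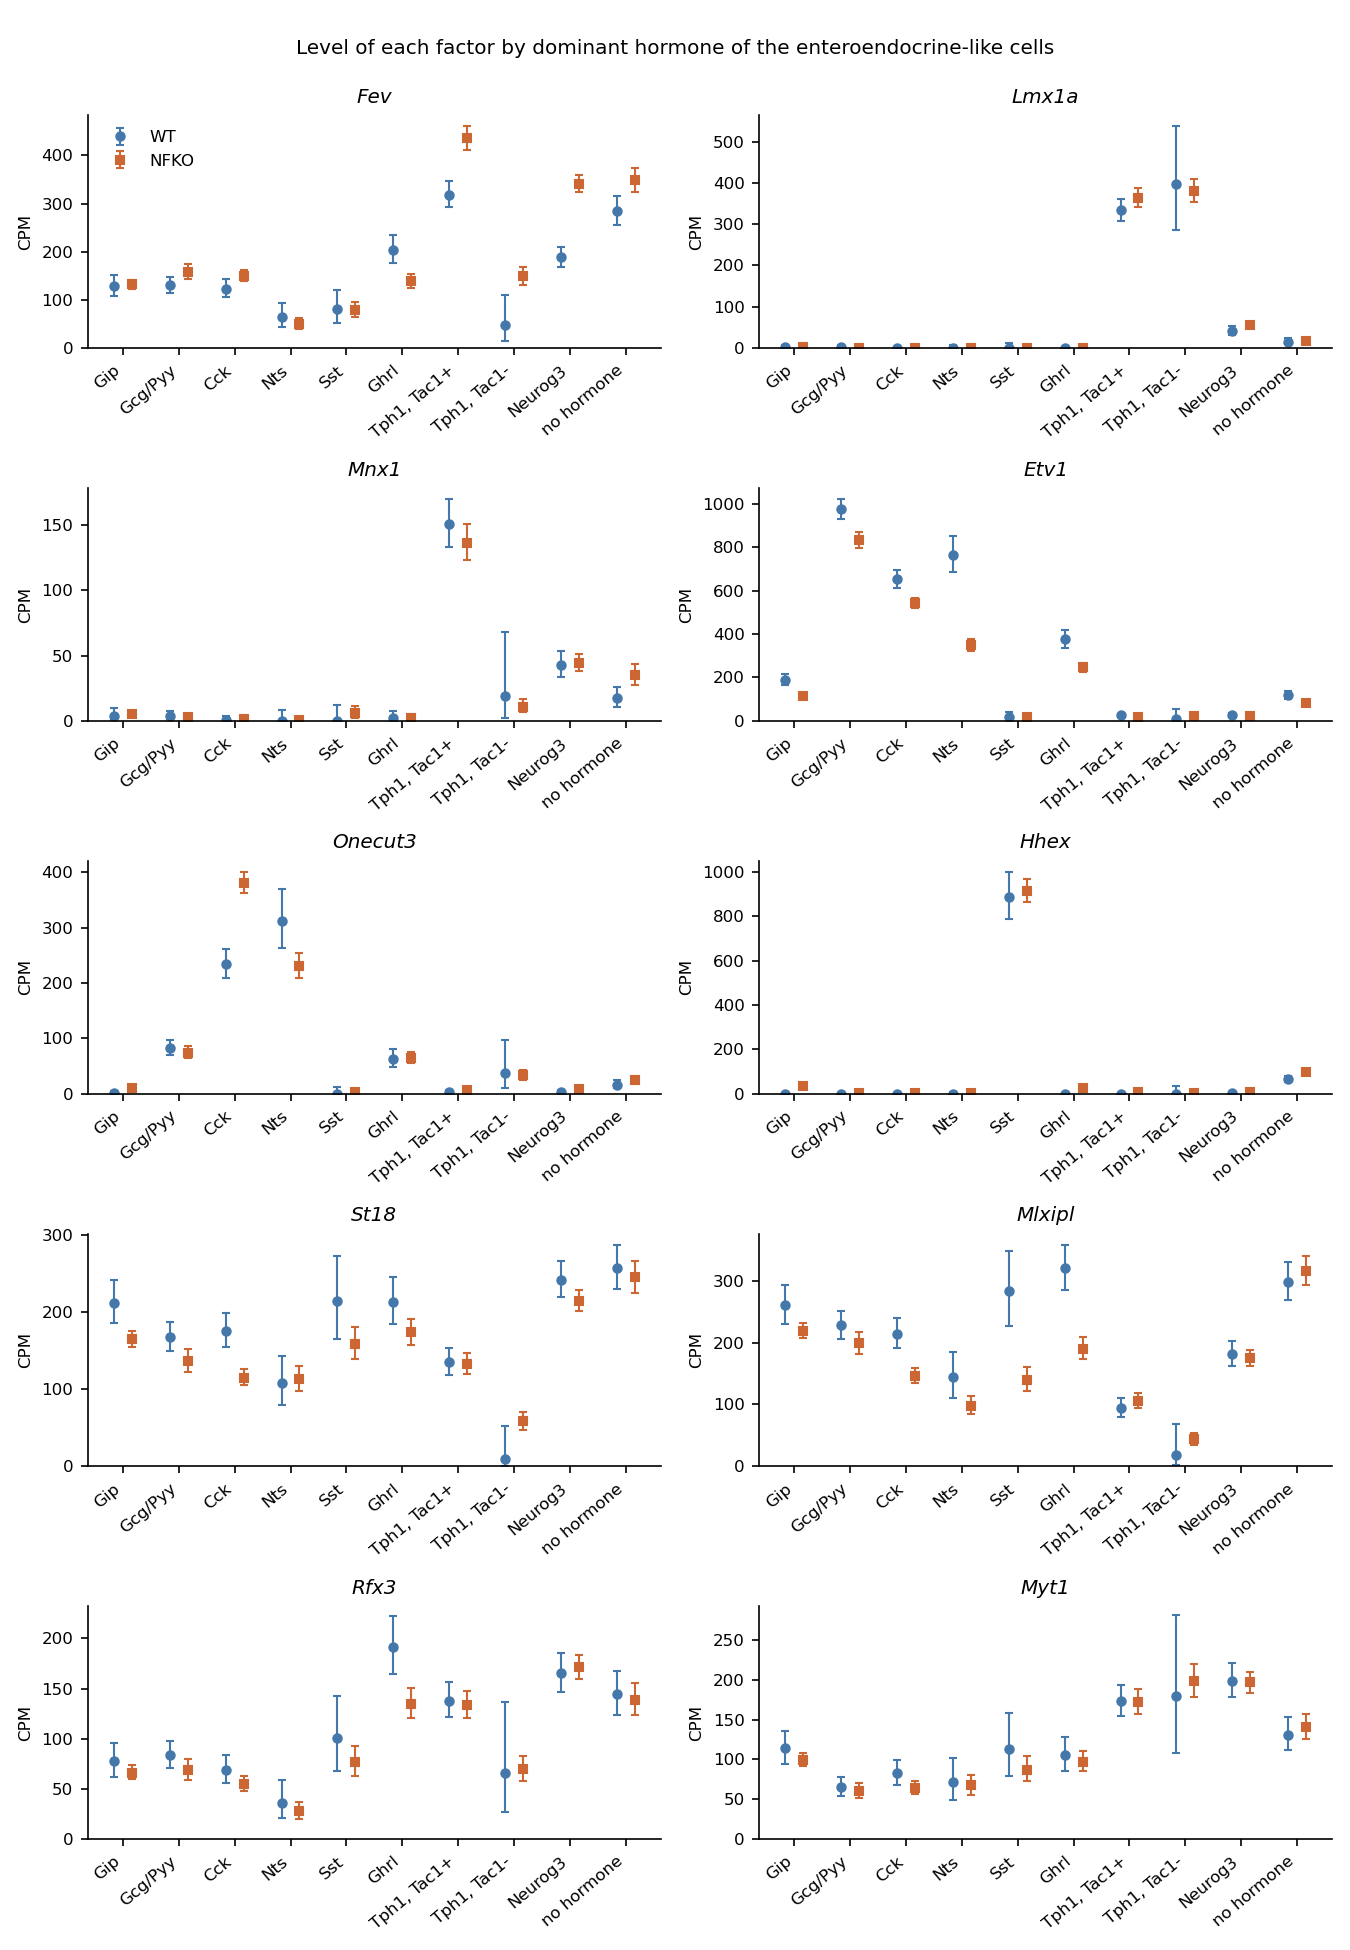
Level of each factor in CPM, on a linear axis from 0, in the 10 hormone groups of the enteroendocrine-like cells of WT (blue circles) and NFKO (orange squares), with 95% Poisson intervals for counting error only. Tac1+ and Tac1- mark the Tph1 groups with and without Tac1. Lmx1a, Mnx1 and Hhex stood high in 1 or 2 groups and near 0 in most others, while St18, Mlxipl, Rfx3 and Myt1 were spread over most groups.

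Lmx1a, Fev and Mnx1 had their highest levels in the Tph1 groups. They are, respectively, a LIM-homeodomain factor that acts upstream of Tph1, an ETS factor known from serotonergic neurons, and a homeodomain factor known from motor neurons and beta cells. Hhex, a homeodomain factor of delta cells in the pancreas, served as the contrast, with its peak in the Sst group. RefSeq promoter windows (GRCm38.p6, 250 bases before to 50 after the transcript start) matched 8 of the 10 members. St18 and Onecut3 had none. For these 4 genes the stretch of up to 200 bases nearest to the start and outside annotated exons is shown, because the first 3 led in a Tph1 group, Lmx1a in that without and Fev and Mnx1 in that with Tac1, and the last in the Sst group. It lies at chr1:167689357-167689556 on the + strand for Lmx1a, chr1:74885420-74885619 on the - strand for Fev, chr5:29478471-29478670 on the - strand for Mnx1 and chr19:37434657-37434809 on the + strand for Hhex. The Lmx1a stretch lies in an intron of a longer Lmx1a transcript of the GENCODE annotation. Capitals mark the motif TNAAGTG, which Nkx2 homeodomain factors can bind, on either strand:
Lmx1a: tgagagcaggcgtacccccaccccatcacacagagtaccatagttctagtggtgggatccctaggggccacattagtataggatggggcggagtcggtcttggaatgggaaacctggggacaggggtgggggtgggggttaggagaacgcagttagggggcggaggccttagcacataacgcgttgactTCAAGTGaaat
Fev: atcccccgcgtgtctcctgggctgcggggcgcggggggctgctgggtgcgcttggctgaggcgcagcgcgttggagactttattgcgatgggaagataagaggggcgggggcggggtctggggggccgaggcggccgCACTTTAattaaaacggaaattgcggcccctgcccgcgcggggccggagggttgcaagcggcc
Mnx1: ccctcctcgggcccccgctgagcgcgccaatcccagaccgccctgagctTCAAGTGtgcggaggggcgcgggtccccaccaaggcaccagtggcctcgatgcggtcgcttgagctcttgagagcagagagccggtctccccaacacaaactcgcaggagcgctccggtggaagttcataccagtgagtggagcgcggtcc
Hhex: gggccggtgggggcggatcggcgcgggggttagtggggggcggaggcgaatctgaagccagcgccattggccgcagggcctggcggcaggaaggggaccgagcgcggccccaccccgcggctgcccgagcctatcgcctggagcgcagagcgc

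The motif was found in the Lmx1a, Fev and Mnx1 stretches, from 12, 74 and 151 bases before the start. It was not in that of Hhex, which was shorter, at 153 bases against 200. Only these 4 of the 8 members with a window were searched, so whether the motif sets the Tph1-group factors apart was not tested. The motif was present in 7.93% of 32505 promoter windows of 200 bases, in which exonic bases were kept. The forkhead motif GTAAACA (2.52% of windows) and the E-box CAGATG (11.6% of windows), both also searched on either strand, were in none of the 4 stretches. These are matches of letters only, and no marked stretch overlapped another motif.

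Lmx1a (ENSMUSG00000026686, chr1:167689237-167848741, + strand), with coordinates here and below from GENCODE M21 on GRCm38, was the most restricted of the 3. Its level in the Tph1 group with Tac1 was 333 (307 to 362, 587 UMIs) in WT and 364 (342 to 387, 1011 UMIs) in NFKO. In the Tph1 group without Tac1 it was 397 (286 to 537, 42 UMIs in 12 cells) in WT and 381 (353 to 410, 691 UMIs) in NFKO. The Tph1 groups thus did not differ in Lmx1a beyond counting error, the ratio of those with to those without Tac1 being 0.840 (0.614 to 1.18) in WT and 0.956 (0.867 to 1.05) in NFKO. Together they held 86.2% of the Lmx1a UMIs of the WT enteroendocrine-like cells and 84.8% in NFKO, and stood 30.04-fold (24.3 to 37.4) and 29.9-fold (26.4 to 33.9) above the other enteroendocrine-like cells. The Neurog3 group followed at 41.8 in WT and 56.1 in NFKO. In the Nts group no Lmx1a UMI was counted in either library, and the Gip, Gcg/Pyy, Cck, Sst and Ghrl groups held 0 to 14 UMIs each.

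Mnx1 (ENSMUSG00000001566, chr5:29473034-29478470, - strand) separated the Tph1 groups. It was at 151 (133 to 170, 265 UMIs) with Tac1 in WT and at 137 (123 to 151, 379 UMIs) in NFKO. Without Tac1 it was at 18.9 (2 UMIs in 12 cells) in WT and 11.03 (20 UMIs in 186 cells) in NFKO. The group with Tac1 was 12.4-fold (7.91 to 20.5) higher than that without in NFKO, and 7.96-fold (2.18 to 66.1) higher in WT on those 2 UMIs. The Neurog3 group was second at 43.0 and 44.6, while the Gip, Gcg/Pyy, Cck, Nts, Sst and Ghrl groups stayed at 5.68 or lower. Over whole groups Mnx1 thus went with Tac1 among Tph1-dominant cells in both libraries, but cells with Tac1 differed by cluster. With Tac1 it was at 167 (WT) and 183 (NFKO) in the cluster led by Tac1. In the cluster led by Cartpt it was at 11.1 (2 UMIs) and 13.3 (10 UMIs) with Tac1. Without Tac1 it was at 18.9 (2 UMIs) and 1.81 (3 UMIs) there. That cluster held 19 of 153 WT and 86 of 249 NFKO cells with Tac1, and 12 of 12 and 176 of 186 without it.

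Fev (ENSMUSG00000055197, chr1:74881509-74885419, - strand) had its highest level in the Tph1 group with Tac1 but was found in every group. Its level there was 319 (293 to 346, 561 UMIs) in WT and 436 (411 to 461, 1209 UMIs) in NFKO. Without Tac1 it was 47.3 (5 UMIs) in WT and 149 (270 UMIs) in NFKO, so that the group with Tac1 was 6.74-fold (2.87 to 20.9) and 2.93-fold (2.56 to 3.35) higher. Over whole groups Fev therefore parted the Tph1 groups less sharply than Mnx1 in NFKO, the intervals of the 2 folds lying apart. The cells with no dominant hormone, at 284 and 349, and the Neurog3 group, at 189 and 341, ranked next or near it. Among the hormone groups it was lowest in the Nts group, at 65.3 and 50.4, apart from the WT Tph1 cells without Tac1. The Tph1 cells with Tac1 differed by cluster in Fev too. With Tac1 it was at 337 (WT) and 520 (NFKO) in the Tac1-led cluster, and at 160 (29 UMIs) and 209 (158 UMIs) in the Cartpt-led cluster. Without Tac1 it was at 47.3 (5 UMIs) and 118 (196 UMIs) in the Cartpt-led cluster.

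At equal depth the Tph1 groups still stood above the other groups in Lmx1a, and the order of the pair could not be told. After thinning, 74.0% (66.1 to 80.9) of 146 WT and 76.4% (70.3 to 81.8) of 225 NFKO cells of the Tph1 group with Tac1 had a Lmx1a UMI, against 6 of 11 WT cells (54.5%, 23.4 to 83.3) and 76.2% (69.0 to 82.4) of 168 NFKO cells without Tac1. In goblet-like cells, taken as background, it was 0 of 878 cells in WT, which allows a share of up to 0.342%, and 0.251% in NFKO. Before thinning the shares were 92.8% and 90.8%, at medians of 11523 and 11483 UMIs, against 0% and 1.07% in goblet-like cells. Fev stood at 69.2% and 68.9% with Tac1, and in WT the Neurog3 group, with 52 of 136 cells, was not above the Gcg/Pyy group, with 55 of 131, unlike in CPM. For Mnx1 the thinned shares were 40.4% (32.4 to 48.8) in WT and 31.6% (25.5 to 38.1) in NFKO with Tac1, and 0 of 11 cells (up to 27.3%) and 3.57% (6 of 168 cells) without it. Of the thinned NFKO cells with Tac1 that had a Lmx1a UMI, 71.5% also had a Fev UMI and 33.7% a Mnx1 UMI. The Neurog3 group also held cells with these factors, 11.8% of 136 WT and 17.3% of 283 NFKO cells having a Lmx1a UMI. In NFKO, 42 of those 49 Neurog3-group cells also had a Fev UMI and 15 a Mnx1 UMI. Before thinning, most Lmx1a and Mnx1 UMIs of the group lay in its cells of the Tac1-led cluster. Lmx1a was at 148 (70 UMIs) and 186 (225 UMIs) there, and Mnx1 at 133 and 118. In the Ooep-led cluster Lmx1a was at 2.36 (3 UMIs) and 6.08 (19 UMIs), and Mnx1 at 9.43 and 16.3. The Ooep-led cluster held 101 of 139 WT and 205 of 284 NFKO cells of the group.

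**Figure D3:**
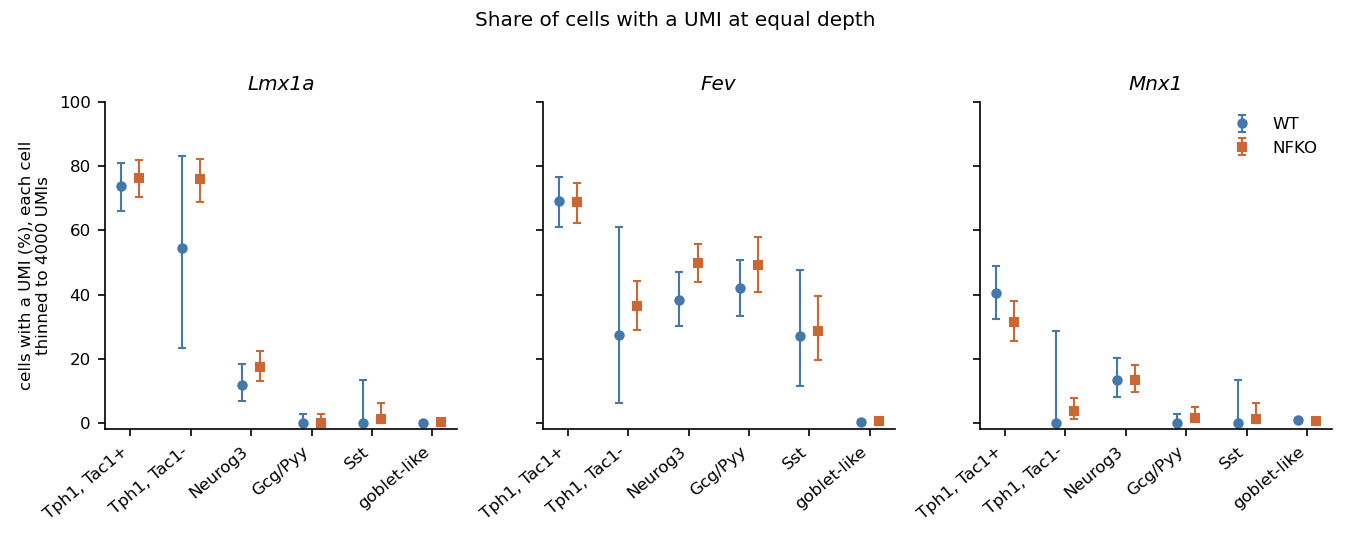
Percent of cells with at least 1 UMI of Lmx1a, Fev or Mnx1 after each cell was thinned to 4000 UMIs, for 5 hormone groups and the goblet-like cells of WT (circles) and NFKO (squares), with exact binomial 95% intervals. Lmx1a stood at 76.4% and 76.2% in the NFKO Tph1 groups with and without Tac1, while Mnx1 stood at 31.6% and 3.57%.

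Among all genes tested, 4.65% were at least 2-fold higher in the Tph1 group with Tac1 in both libraries, and Lmx1a and Mnx1 were the 2 members that did so. Lmx1a was the 1 member called in the group without Tac1 (6.66% of genes), and the same 2 members were called over both Tph1 groups combined (5.63%). Fev missed the call at 1.96-fold in WT, with 2.37-fold in NFKO. The 6 serotonin genes gave the frame. Tph1 itself, which chose the cells, was at 4916 and 5143 in the group without Tac1 and at 2528 and 2716 in that with it. Slc18a2, a vesicular monoamine transporter, was 50.6-fold (WT) and 33.1-fold (NFKO) higher in the group with Tac1 than in the other enteroendocrine-like cells, while its relative Slc18a1 led in the group without Tac1 in both libraries. None of the 6 differed by 1.5-fold between NFKO and WT over the class.

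Etv1 (ENSMUSG00000004151, chr12:38779380-38870484, + strand), an ETS factor, was highest in the Gcg/Pyy group and also high in the Cck, Nts and Ghrl groups. In the Gcg/Pyy group it was at 975 (930 to 1021, 1808 UMIs) in WT and 833 (798 to 868, 2169 UMIs) in NFKO. The Cck group followed with 653 (935 UMIs) and 540 (2207 UMIs). The Nts group had 765 (340 UMIs) in WT but 349 (617 UMIs) in NFKO, and so came before the Cck group in WT and after it in NFKO, in each case beyond counting error. The Ghrl group was at 376 (349 UMIs) and 246 (597 UMIs). At the other end, the Sst group was at 19.5 and 16.3, the Tph1 group with Tac1 at 24.995 and 19.5 and the Neurog3 group at 28.7 and 22.3. Etv1 was at least 2-fold higher in both libraries in the Gcg/Pyy group, where 2.05% of genes were, and in the Cck group, where 1.67% were, but not in the Nts or Ghrl groups. Of the thinned Gcg/Pyy cells 94.7% of 131 in WT and 81.4% of 140 in NFKO had an Etv1 UMI, against 0.683% and 0.689% of goblet-like cells.

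Onecut3 (ENSMUSG00000045518, chr10:80494835-80517276, + strand), a factor of the cut-homeodomain family, was found mainly in the Cck and Nts groups. In WT the Nts group led with 313 (263 to 369, 139 UMIs), above the Cck group at 234 (210 to 261, 335 UMIs), by 1.34-fold (1.09 to 1.63). In NFKO the Cck group led with 381 (363 to 401, 1558 UMIs), above the Nts group at 231 (209 to 254, 408 UMIs), by 1.65-fold (1.48 to 1.85). The order of the pair was thus opposite in these sums, beyond counting error in both. It was not so with each cell given the same weight, where the Cck group led in both libraries, and the thinned shares were 40.6% (Cck) and 57.1% (Nts) in WT and 53.7% and 52.0% in NFKO. The pair also differed in make-up. The Nts-led cluster held 31 of 56 WT cells of the Nts group with 28.2% of its UMIs, at a median of 3543 UMIs per cell, and 83 of 114 NFKO cells with 69.0%. In the Nts-group cells of that cluster Onecut3 was at 95.8 (12 UMIs) in WT and 218 (266 UMIs) in NFKO, while in those of the Gcg-led cluster it was at 399 and 385. Gcg/Pyy cells followed at 82.5 and 74.1 and Ghrl cells at 62.4 and 64.2, while the Gip group was at 0.935 (1 UMI) in WT and 10.5 (59 UMIs) in NFKO. Onecut3 was also at least 2-fold higher than in other enteroendocrine-like cells in both groups of both libraries, and was the member called in the Nts group, where 3.61% of genes were called. The Cck group carried the goblet markers at 3486 in WT and 7946 in NFKO, and their part in the difference was not tested.

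Hhex (ENSMUSG00000024986, chr19:37434810-37440731, + strand) was the factor of the Sst group, which held 76.3% of its enteroendocrine-like UMIs in WT and 70.1% in NFKO. It stood there at 889 (787 to 1001, 274 UMIs in 36 cells) in WT and at 916 (867 to 967, 1290 UMIs in 89 cells) in NFKO, not different beyond counting error at a ratio of 1.03 (0.903 to 1.18). At equal depth 26 of 26 WT and 86 of 87 NFKO cells of the group had a Hhex UMI, against 0 of 878 WT (up to 0.342%) and 0.376% of NFKO goblet-like cells. The Sst group stood 110-fold (86.3 to 143) above the other enteroendocrine-like cells in WT and 46.2-fold (41.7 to 51.1) in NFKO. Of all genes tested 3.79% were at least 2-fold higher in this group in both libraries, and Hhex was the 1 member among them.

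The difference between those 2 folds lay in the other groups. Cells with no dominant hormone held Hhex at 64.0 (78 UMIs in 100 cells) in WT and 95.7 (212 UMIs in 148 cells) in NFKO. The Gip group had no Hhex UMI in 86 WT cells, which allows a level of up to 2.80, and 195 UMIs in 321 NFKO cells, a level of 34.6 (29.96 to 39.9), at least 12.4-fold higher when WT is set to 3 UMIs. On the same bound the Ghrl group was at least 8.16-fold higher in NFKO (64 UMIs against 0) and the Tph1 group with Tac1 at least 3.81-fold (18 UMIs against 0). Few cells carried these counts. In the Ghrl group 4 of 150 NFKO cells held 63 of the 64 UMIs, and their median Sst level was 66793, against 50.1 over the group. In the Tph1 group with Tac1 a single cell with Sst at 26876 held 12 of the 18. These folds therefore do not describe the groups as a whole. Across the remaining cells Hhex was also higher in NFKO, at 1.54 (127 UMIs) against 0.355 (24 UMIs). The part of free RNA, or of the sex of the mice, in these low counts was not tested.

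Within the Gip group of NFKO, 13 of 321 cells had at least 5 Hhex UMIs and held 92.3% of the group's Hhex UMIs. Of the 13, 9 lay in the Sst-led cluster, whose top genes included Sst and Iapp (amylin), although Hhex was not used for clustering. In those 9 cells the median Gip level was 132281, the median Iapp level 2347 and the median Sst level 186, against a median Sst level of 233673 in the Sst group. They thus held Hhex and Gip with little Sst. Their median depth was 13588 UMIs, against 17594 in the Gip group. All 36 WT cells of that cluster were in the Sst group, against 88 of its 111 NFKO cells. WT thus had no cell of another group there to compare.

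Hhex without Sst was seen in WT as well. In the Tac1-led cluster 5 cells with no dominant hormone held 54 of the 78 Hhex UMIs of their group at a median Sst level of 0, and 8 such NFKO cells held 70 at a median of 73.8. In all, 22 WT and 123 NFKO cells had at least 5 Hhex UMIs, of which 5 and 39 were outside the Sst group. The WT cells of the Sst group were shallow, with 17 of 36 reaching 5 Hhex UMIs, against 84 of 89 in NFKO, so these cell counts depend on depth.

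The other 4 factors were broad. Mlxipl (ENSMUSG00000005373, chr5:135089890-135138382, + strand) was at 94.3 to 320 in WT groups and 97.9 to 316 in NFKO groups, leaving aside the Tph1 cells without Tac1, where it was lowest at 18.9 (2 UMIs) and 43.6 (79 UMIs). In the Tph1 groups together it was 0.380 (0.323 to 0.445) of the level in other enteroendocrine-like cells in WT and 0.427 (0.383 to 0.475) in NFKO. The groups with the highest Lmx1a levels thus lay, as a pair, below the other cells in Mlxipl. Genes of the carbohydrate response, which ChREBP is known to drive, were taken as a list of 8 (Pklr, Txnip, Acly and others). Of these, 2 were at least 2-fold higher in enteroendocrine-like cells in both libraries, a call made for 38.2% of genes tested. None of the 8 differed by 1.5-fold between NFKO and WT, where 8.46% of genes were higher and 8.43% lower. The median log2 ratio of the 8 was 0.06.

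St18 (ENSMUSG00000033740, chr1:6487231-6860940, + strand), a relative of Myt1, was at 108 to 257 in WT groups and 113 to 245 in NFKO groups except the Tph1 cells without Tac1, at 9.45 (1 UMI) and 58.4 (106 UMIs). Its highest levels were in the cells with no dominant hormone, 257 and 245, and in the Neurog3 group, 242 and 215. Those 2 groups did not differ beyond counting error in WT, and did so by 1.14-fold (1.03 to 1.27) in NFKO.

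Rfx3 (ENSMUSG00000040929, chr19:27761721-28011166, - strand), a factor of ciliary and endocrine genes, was at 192 (165 to 222) in the WT Ghrl group and 165 (147 to 185) in the WT Neurog3 group, which were not separated by counting error. In NFKO the Neurog3 group led at 171 (159 to 184), above the cells with no dominant hormone at 139 and the Ghrl group at 135. The Nts group was lowest in both libraries, at 36.0 and 27.7.

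Myt1 (ENSMUSG00000010505, chr2:181763332-181827797, + strand), a zinc-finger factor of endocrine differentiation, was at 198 (178 to 220) in WT and 197 (184 to 210) in NFKO in the Neurog3 group. The Tph1 group without Tac1 was level with it, at 180 (19 UMIs) and 198 (359 UMIs), and that with Tac1 came next at 173 and 173. Gcg/Pyy cells were lowest at 65.8 and 60.7. In the Neurog3 group and in either Tph1 group, each taken whole, Myt1 did not differ between the libraries beyond counting error. No member reached 2-fold in both libraries in the Gip (3.74% of genes), Ghrl (2.52%) or Neurog3 (3.54%) groups or in the cells with no dominant hormone (0.681%).

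Over the whole enteroendocrine-like class, NFKO differed from WT by at least 1.5-fold for 2 of the 10 members. Hhex was higher, at 63.3 against 33.0, a ratio of 1.91 (1.71 to 2.15), a call made for 8.46% of 14239 genes. Etv1 was lower, at 228 against 357, a ratio of 0.638 (0.613 to 0.664), a call made for 8.43%. The members' count was thus near the background in each direction. Onecut3 had a ratio of 1.32 (1.21 to 1.44) and Mnx1 one of 0.722 (0.636 to 0.821), while Fev, Lmx1a, St18, Mlxipl, Rfx3 and Myt1 lay between 0.813 and 1.11. The median log2 ratio was -0.17 over the members and -0.03 over 14207 genes.

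**Figure D4:**
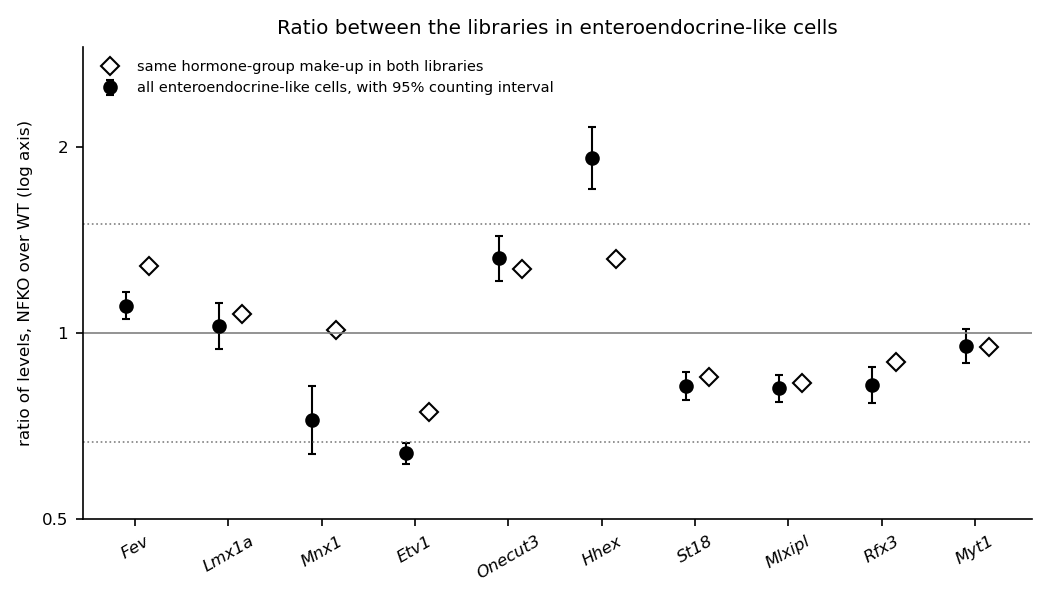
Ratio of levels in enteroendocrine-like cells, NFKO over WT, on a log axis, for the 10 factors, with 95% counting intervals (filled) and with the hormone groups given the same share of UMIs in both libraries (open). Dotted lines mark 1.5-fold. Hhex at 1.91 and Etv1 at 0.638 lay outside them and came to 1.32 and 0.746, inside them, once the make-up was held fixed.

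The make-up of the class differed between the libraries, and neither call was reached once each group had the same share of UMIs. The Gip group was 9.67% (7.81 to 11.8) of WT and 17.0% (15.3 to 18.7) of NFKO enteroendocrine-like cells. The Gcg/Pyy group was 14.7% (12.5 to 17.2) and 7.46% (6.31 to 8.73), and the Tph1 group without Tac1 1.35% (0.699 to 2.35) and 9.84% (8.53 to 11.3). For the Sst group, which held most Hhex UMIs, the cell shares were 4.05% (2.85 to 5.56) and 4.71% (3.80 to 5.76). Its WT cells were shallower, with medians of 7469 and 16394 UMIs per cell. A share of UMIs thus depends on depth as well as on cell number. With the groups held at the same share of UMIs in both libraries, the ratios were 1.32 for Hhex, 0.746 for Etv1 and 1.01 for Mnx1, and no member was 1.5-fold apart. Fev went the other way, from 1.11 to 1.28. In bulk sums of this kind fewer cells of a type and less RNA per cell cannot be told apart, and the values within groups bear on it directly.

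Within groups, Etv1 had a ratio of NFKO to WT of 0.456 (0.399 to 0.522) in the Nts group, 0.602 (0.513 to 0.709) in the Gip group, 0.654 (0.573 to 0.749) in the Ghrl group, 0.827 in the Cck group and 0.854 in the Gcg/Pyy group, with intervals below 1 in all 5. The cells of a group lay in different clusters in the libraries, so the ratios were also taken among the cells of a group that shared a cluster, for clusters with at least 10 such cells in both libraries, a split chosen after seeing the data. In the Nts group Etv1 then had a ratio of 1.02 (0.716 to 1.48, 35 WT UMIs) in the Nts-led cluster and 0.674 (0.565 to 0.804) in the Gcg-led cluster, which held 68.9% of the group's UMIs in WT and 19.9% in NFKO. In the Gip group the Gip-led cluster gave 0.616, and in the Ghrl group the clusters led by Ooep (with Neurog3 and Ghrl among its top genes) and by Gcg gave 0.811 (0.650 to 1.02) and 0.813 (0.670 to 0.987). In the Cck group the ratio ran from 0.468 (0.376 to 0.581) in the Gip-led cluster to 1.47 (1.22 to 1.79) in the Drd4-led cluster. The low Etv1 ratio of the Nts group was thus not seen in the Nts-led cluster, where the interval held 1, while that of the Gip group was seen in the Gip-led cluster.

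Onecut3 had a ratio of 1.63 (1.45 to 1.84) in the Cck group. The Pzp-led cluster, which has Cck among its top genes, held 13 of 103 WT and 66 of 209 NFKO cells of that group. Onecut3 had a ratio of 1.49 (1.19 to 1.87) there and 1.36 (1.14 to 1.62) in the Gcg-led cluster. It was 2.13 (1.39 to 3.36) in the Gip-led cluster and 0.194 (0.0960 to 0.378) in the Drd4-led cluster. Mlxipl was lower in the Sst group at 0.495 (0.383 to 0.645), nearly all of whose cells lay in the Sst-led cluster. In the Ghrl group Mlxipl had a ratio of 0.595 (0.513 to 0.691), made of 0.518 (0.433 to 0.620) in the Ooep-led and 1.20 (0.895 to 1.60) in the Gcg-led cluster. Its interval held 1 in the Tph1 groups and the Neurog3 group, each taken whole. In the Tac1-led cluster it was 1.33 (1.09 to 1.63) in the Tph1 group with Tac1 and 0.722 (0.571 to 0.918) in the Neurog3 group. In the Cartpt-led and Ooep-led clusters of these groups, respectively, the interval held 1. Fev was higher in the Neurog3 group, at 1.80 (1.60 to 2.04), and in both main clusters of that group, at 2.60 (2.15 to 3.15) in the Ooep-led and 1.27 in the Tac1-led cluster. In the Tph1 group with Tac1 it was higher at 1.37 (1.24 to 1.51), with 1.54 (1.39 to 1.72) in the Tac1-led and 1.31 (0.876 to 2.01) in the Cartpt-led cluster. In the Ghrl group Fev had a ratio of 0.677 (0.565 to 0.813), but the clusters went opposite ways, at 0.527 (0.417 to 0.669) in the Ooep-led and 1.57 (1.15 to 2.16) in the Gcg-led cluster. Rfx3 and Myt1 stayed within 1.5-fold in every group, but not in every cluster of a group. Myt1 had a ratio of 0.635 (0.452 to 0.904) in the Cartpt-led cluster of the Tph1 group with Tac1. In the Drd4-led cluster of the Gcg/Pyy group it was 0.497 (0.262 to 0.976, 16 WT UMIs). In the other clusters the Myt1 interval held 1, as did that of Rfx3 wherever it passed 1.5-fold. The stress genes were lower in NFKO in all 10 groups, for instance 7012 against 11589 in the Neurog3 group and 4313 against 7929 in the Gip group, and their part in these ratios was not tested.

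Cells with a Y-linked UMI and no Xist UMI, of which there were 742 in WT and 130 in NFKO, allowed the class ratios to be taken within a single sex. Hhex then had a ratio of 2.71, Etv1 of 0.583 and Mlxipl of 0.664, while Fev was at 0.879 and Onecut3 at 0.949. Among these cells Hhex was higher and Etv1 lower in NFKO, as over the class, while Fev and Onecut3 lay below 1, unlike over the class. No intervals were computed for these ratios, which rest on 130 NFKO cells. Whether Fev and Onecut3 differed from 1 here was therefore not shown. The make-up of the hormone groups was not held fixed here, and the part of sex in the class ratios was not tested.

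Other genes of endocrine differentiation were counted beside the members. Of all genes tested, 38.2% were at least 2-fold higher in enteroendocrine-like cells in both libraries. All 14 pan-endocrine factors, from Neurog3 and Neurod1 to Insm1 and Rcor2, were at least 2-fold higher in enteroendocrine-like cells in both libraries. Only Neurog3 differed by 1.5-fold between the libraries, at 160 in WT and 246 in NFKO, a ratio of 1.54 (1.46 to 1.62), and none was 1.5-fold lower. Their median log2 ratio was 0.01. Rfx6 led in the Gip group at 457 and 297, and Foxa1 in the Tph1 group without Tac1 at 350 and 437. Of 12 paralogues of the members, 11 had the required UMIs and 9 were at least 2-fold higher in enteroendocrine-like cells in both libraries. Etv5 was the 1 of them that differed by 1.5-fold, at 15.6 and 24.0, whereas Etv4, another relative of Etv1, was at 7.36 in both. Lmx1b, the closest relative of Lmx1a, led in the Neurog3 group at 17.8 and 22.1.

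The genes most like each factor were taken from the levels in 19 points, the hormone groups of at least 20 cells in each library, among 10368 genes. The points share libraries and depth, and the values are descriptions. Nearest to Lmx1a were Slc38a11, of an amino acid transporter family (Pearson r = 0.98), and the glutamate receptor subunit Grik4 (0.97). Nearest to Etv1 were Ffar1 (0.96) and Ffar3 (0.95), receptors for fatty acids, with Rnf130 between them. For Hhex these were Ppp1r2 (0.86), Iapp (0.83) and the ion channel gene Asic5 (0.82), for Mnx1 Vav3 (0.94) and for Onecut3 Stard4 (0.92) and the somatostatin receptor gene Sstr5 (0.92). Among the members themselves Lmx1a ran with Mnx1 (0.89) and Myt1 (0.84), St18 with Mlxipl (0.87) and Etv1 with Onecut3 (0.79), while Etv1 ran against Myt1 (-0.81) and Lmx1a (-0.68).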

How the data were processed

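Epithelial cells that carried Tomato were profiled by 10x Genomics 3′ single-cell RNA-Seq in 1 WT and 1 NFKO library. The authors deposited matrices of raw UMI counts per gene and cell, aligned to mm10 with Cell Ranger 5.0.1 per the submitters' processing notes. No column of another series was present (0 unused). A barcode was kept if it had 500 genes or more, 1000 UMIs or more and a mitochondrial share of no more than 25%, so that 38.1% of the WT and 25.3% of the NFKO barcodes fell away. Scrublet (scanpy 1.11.5) scored doublets. Its automatic threshold marked 57 WT and only 3 NFKO barcodes, so the top-scoring 0.8% per 1000 barcodes were removed instead (126 and 340). The libraries shared 4 kept barcodes.

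The kept cells, WT and NFKO in a single run, were clustered with Seurat 5.3.0 (R 4.3.3) on 2000 variable genes, 30 principal components, 20 neighbours and a resolution of 0.8. The 10 members and 10 other genes were left out. Of the 23 clusters 9 were named enteroendocrine-like from marker genes, with at least 3 markers at 2 times the median level over clusters and seen in 10% of cells, a naming rule set after the clusters were seen. A shallow cluster that also held endocrine markers stayed unnamed. Each enteroendocrine-like cell was given its dominant gene (Gip, Gcg plus Pyy, Cck, Nts, Sst, Ghrl, Tph1 or Neurog3) by its CPM divided by the 99th percentile of that gene, with a limit of 0.05. Tac1 at the same limit divided the Tph1 cells.

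Counts were summed per library and group in Python 3.11.15 (numpy 2.4.6, scipy 1.17.1). Ratios have exact conditional binomial intervals, which held the true value in 95.6% of cases on simulated data for NFKO over WT (16040 genes, 200 of them changed). The simulated counts were Poisson draws, as the intervals assume. They had no added spread between cells or animals, so this share checks the calculation only. Genes needed 20 UMIs over both libraries. A count of 0 was bounded by 3 UMIs per group. No test between genotypes was possible, so genes were called by a fold of at least 2 (cell groups) or 1.5 (libraries). In the comparison with held make-up, each hormone group had the same share of UMIs in both libraries. Similar genes were the 3 with the highest Pearson r over group levels as log2 of CPM plus 1, among genes with 200 UMIs. The members are named by their symbols, the other genes from fixed lists by role and by likeness to a member. The cells with 5 Hhex UMIs and the genes described in them were chosen after the values were seen. The members and lists were chosen with earlier results of these data known. Coordinates are GRCm38 with GENCODE M21 exons.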

Additional observations from a re-analysis of the deposited data

Results flagged for a closer look

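St18 differed between NFKO and WT in opposite directions in different hormone groups. NFKO over WT was 6.18 (1.09 to 246) in the Tph1 group without Tac1, on 1 WT UMI in 12 cells and 106 NFKO UMIs in 186 cells, and 0.656 (0.562 to 0.768) in the Cck group, on 251 and 470 UMIs. With 1 library per genotype the difference between these ratios was not tested.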

How the results depend on the processing

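All 10 members remained at least 2-fold higher in enteroendocrine-like cells of both libraries under each alternative tried, and all 200 recomputed folds kept their direction. Of 110 recomputed NFKO over WT ratios 103 kept their direction, and none of those past 1.5-fold turned. These tallies include a count minimum of 5, which cannot change a fold or ratio. They also include another clustering seed, which again gave 889 and 1891 enteroendocrine-like cells. With the make-up of the hormone groups held fixed, 0 members were 1.5-fold higher and 0 were 1.5-fold lower, and the median log2 ratio was -0.0279. The 1.5-fold lower count was also 0 with a per-cell endocrine gate in place of clusters and 0 without the Tph1 group without Tac1 (an alternative chosen after seeing the data), and 2 among male-typed cells. The number of members with the same leading group was 5 to 8 over the alternatives. Etv1, Mnx1 and Hhex kept their leading groups throughout, as did Rfx3, while those of Fev, Mlxipl and Myt1 changed most often. Without replicates no error between animals could be estimated, and the depth of single WT groups (12 cells in the Tph1 group without Tac1) limits the values there. No paired analysis was possible because each genotype had 1 library.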

Other observations

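The unnamed cluster that was too shallow to be named (149 WT and 126 NFKO cells, median of 3324 UMIs) carried several of the factors. Mlxipl was at 629 CPM (568 to 694, 392 UMIs) in WT and 427 (358 to 505, 136 UMIs) in NFKO there, St18 at 221 (138 UMIs) and 97.3 (31 UMIs), and Fev at 96.2 and 97.3. Lmx1a and Hhex had 2 and 5 UMIs in WT and 9 and 5 in NFKO. Another unnamed cluster (39 and 227 cells) held 0 to 15 UMIs of the members Fev, Lmx1a, Mnx1, Hhex, St18, Mlxipl and Rfx3 in either library.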
